A study of Drosophila melanogaster with 28 samples.

Results

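*kermit* (*CG11546*), *CG31637*, *CG12063* and *CG4844* are 4 genes that the study lists as male-biased and downstream of *doublesex* (*dsx*), and they were followed here over 7 comparisons of *Drosophila melanogaster* pupae, array by array. Each is represented by 1 of the 15744 array elements used, and the 4 belong to a list of 52 male-biased elements downstream of *dsx*. They were chosen by name from that list, as genes lower in both wild type sexes than in animals without *dsx*. The list itself was built by the study from the wild type, germline-less, *transformer* (*tra*) pseudomale and *dsx*D pseudomale arrays, and the *dsx* null arrays served to choose the 4 from it, so the values in the wild type, germline-less, *dsx*D and null comparisons are a description without a test. *CG31637* is also on the study's list of genes downstream of *tra*, whereas the other 3 entered by a second route, open to genes that did not pass the study's *tra* test.

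Sex in the *Drosophila* soma is set by a splicing cascade. In XX animals SXL directs the splicing of *tra*, and TRA directs the splicing of *dsx* into the female form, whereas in XY animals *tra* makes no functional protein and the male form of *dsx* is made by default. Both DSX proteins bind the same DNA sequences through a shared domain and differ in their ends, and they act on genes that build sexually dimorphic tissues of the adult, which form in the pupa.

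*kermit* encodes a PDZ domain protein of the GIPC family that binds myosin VI, and it lies on chromosome arm 2R. *CG31637*, on arm 2L, is annotated as a carbohydrate sulfotransferase, an enzyme that adds sulfate groups to sugar chains. *CG12063*, on arm 3R, is now called *mey* (*morpheyus*) and encodes a zona pellucida (ZP) domain protein, a family of membrane-anchored proteins of the apical extracellular matrix that shape epidermal cells and their cuticle. *CG4844* is now part of the gene model *nw* (*narrow*), on arm 2R, which encodes a protein with a C-type lectin domain and is named for a wing phenotype. The 4 array elements are DAC006B21 for *kermit*, DAC004J19 for *CG31637*, DAC005M17 for *mey* and DAC006C03 for *nw*.

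Whole pupae were taken at 48 hr after puparium formation (APF), RNA came from about 30 pupae per sample, and the RNAs of 2 genotypes were hybridized to 1 oligonucleotide array, with 4 arrays for each comparison and 28 in all. Females were compared with males in the wild type strains Canton S (CS) and Berlin and in *tud* progeny, which lack a germline because their mothers were *tud*1 *bw*1 *sp*1 females and whose fathers carried *y w* and a UBI-GFP marker on the X. CS females were compared with XX *tra* pseudomales (*tra*1 over the deficiency *Df(3L)st-j7*), with XX *dsx*D pseudomales (*dsx*D *Sb*1 *e*1 over *dsx* M+R15) and with XX *dsx* nulls (*dsx* D+R3 over *dsx* M+R15), and CS males were compared with XY *dsx* nulls of the same alleles. The pseudomales make the male form of DSX in an XX body, and the nulls make neither form.

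The XX mutants carry the UBI-GFP X, and the *dsx*D pseudomales also *Sb*1 and *e*1, which the CS controls lack. Hence *dsx* or *tra* genotype and strain background cannot be told apart in these comparisons. The *tra*, *dsx*D and XX null comparisons share CS female RNA as the control. All values are log2 ratios of the first genotype over the second (female over male, CS female over pseudomale or XX null, CS male over XY null), so a negative ratio means a higher level in males, pseudomales or nulls. The first genotype was labeled with Cy5 on replicates 1 and 2 and with Cy3 on replicates 3 and 4. Ratios give no level of one gene against another. In RNA of whole pupae, fewer cells of a type and less RNA per cell cannot be told apart.

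Each array gave values for 4783 to 12023 elements. *roX1*, a noncoding RNA of male dosage compensation, was far higher in males in CS, Berlin and *tud* progeny, with mean log2 ratios of -4.69, -5.60 and -7.82, and lay near 0 in *tra* (-0.01) and *dsx*D (-0.05) pseudomales, as it should between XX animals. In the XX nulls it had values on 2 arrays, -0.23 on replicate 3 and -4.41 on replicate 4. The sample labelled XX *dsx* null on replicate 4 thus goes against its label for this gene, and the XX null means, counts, ranks and differences below are given with and without it. The 2 elements of *Sxl*, which encodes SXL, had means of 0.31 ± 0.60 and 1.16 ± 0.57 in CS (n = 4). In XX nulls they had -0.24 ± 0.21 and -0.02 ± 0.30, with values on all 4 arrays. The cause of the *roX1* value on replicate 4 was not tested. The *tra* element was higher in CS females than in *tra* pseudomales on all 4 arrays (0.90 ± 0.27, mean ± SD). Arrays of the same dye orientation correlated better than arrays of opposite orientation in *tra* (mean *r* of 0.702 and 0.368) and *tud* (0.728 and 0.421), and the members' values are given by orientation where these differ.

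**Figure D1:**
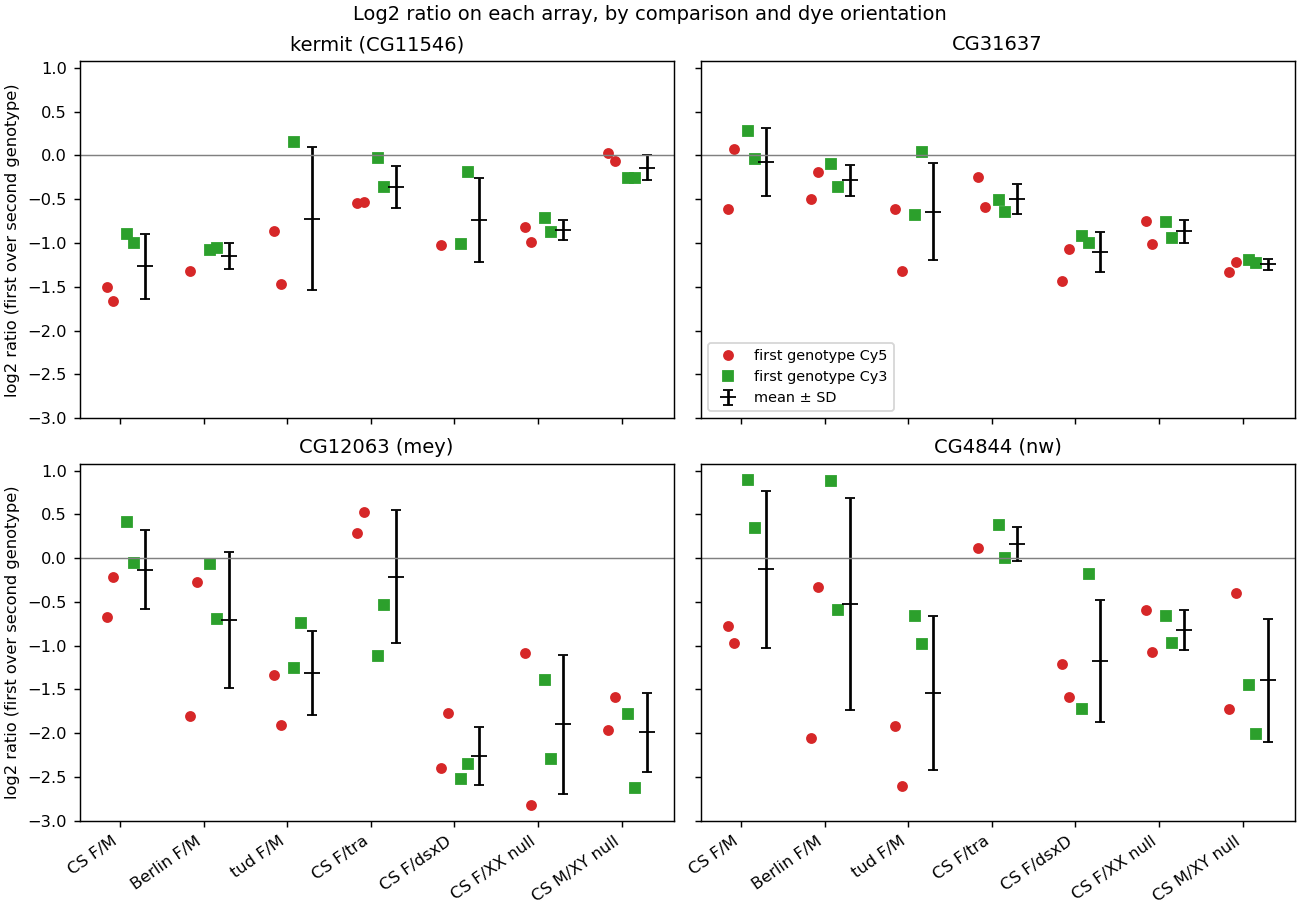
Log2 ratios (y axis) of the 4 genes on each array in the 7 comparisons (x axis; F, female; M, male), with the first genotype labeled with Cy5 as circles and with Cy3 as squares, and the mean ± SD beside them. *kermit* lies below 0 on all 7 wild type arrays with a value and near 0 in XY nulls, whereas the other 3 genes lie on both sides of 0 in CS and below 0 on every array of the *dsx*D and both null comparisons.

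*kermit* was the one gene of the 4 with a male bias on every CS array. In CS its log2 ratios were -1.50, -1.66, -0.90 and -1.01 on replicates 1 to 4, and in Berlin they were -1.32, -1.08 and -1.05 on replicates 1, 3 and 4, with no value on replicate 2. The Cy5 arrays were lower than the Cy3 arrays in both strains, but all 7 were well below 0. The mean was -1.27 ± 0.37 (SD, n = 4) in CS and -1.15 ± 0.15 (n = 3) in Berlin, that is 2.41-fold and 2.22-fold more transcript in males. Within the list of 52 elements *kermit* was the fourth most male-biased over the wild type arrays of both strains, between *CG14995* (-1.89) and *Kank* (-1.05).

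For the other 3 genes the label of male bias was not borne out by every CS array. *CG31637* had log2 ratios of -0.61, 0.08, 0.28 and -0.04 in CS and -0.50, -0.19, -0.10 and -0.35 in Berlin. Its CS arrays lay on both sides of 0, with a mean of -0.07 ± 0.38 (n = 4), and all Berlin arrays lay below 0, with a mean of -0.28 ± 0.18 (n = 4). *mey* had -0.67, -0.21, 0.42 and -0.06 in CS, and -1.81, -0.27, -0.06 and -0.69 in Berlin. Its mean was -0.13 ± 0.45 (n = 4) in CS and -0.71 ± 0.78 (n = 4) in Berlin, where replicate 1 was far below the other arrays.

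*nw* had log2 ratios of -0.78, -0.97, 0.89 and 0.34 in CS and -2.06, -0.33, 0.89 and -0.60 in Berlin. The CS arrays split by dye: both arrays with female RNA in Cy5 were below 0 and both with female RNA in Cy3 were above it. Over both strains the mean was -1.04 on the 4 arrays with female RNA in Cy5, all below 0, and 0.38 on the 4 with female RNA in Cy3, of which 1 was below 0. The part of the dye in the wild type sex difference of *nw* was not tested. For *mey* the same 2 means were -0.74 and -0.10, for *CG31637* -0.31 and -0.05, and for *kermit* -1.49 (3 arrays) and -1.01, so that over both strains *nw* alone changed direction between orientations. In CS alone *CG31637* (-0.27 and 0.12) and *mey* (-0.44 and 0.18) did so too.

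Counted over arrays, 1 of the 4 genes was below 0 on every CS array and 3 were so on every Berlin array, against 22.9% and 22.1% of all elements with at least 3 values. The CS and Berlin sex differences could be compared with a test, since the choice of the genes used both strains but not their difference. The CS minus Berlin difference was -0.11 for *kermit* (95% confidence interval -0.67 to 0.44, *q* = 0.640), 0.21 for *CG31637* (-0.29 to 0.71, *q* = 0.525), 0.58 for *mey* (-0.28 to 1.44, *q* = 0.415) and 0.40 for *nw* (-0.97 to 1.77, *q* = 0.598), from limma's moderated test with Storey's *q* values over all elements. None of the 4 was called at *q* below 0.15, and 0 of the 4 had an unadjusted limma *p* below 0.05, against 3.39% of all elements called. With 1 array left out the difference ran from -0.24 to 0.02 for *kermit* (above 0 without CS replicate 2), from 0.09 (without CS replicate 3) to 0.39 (without CS replicate 1) for *CG31637*, from 0.21 (without Berlin replicate 1) to 0.79 for *mey* and from -0.12 (without Berlin replicate 1) to 0.87 (without Berlin replicate 3) for *nw*. The intervals of *CG31637*, *mey* and *nw* are wide enough to hold a strain difference larger than either strain's mean ratio.

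In *tud* progeny, which have no germline, all 4 genes had a mean below 0. *kermit* had values on 3 arrays, -0.86, -1.46 and 0.15 on replicates 1, 2 and 4, with a mean of -0.72 ± 0.82. Both Cy5 arrays were male-biased and the one Cy3 array was not, and the mean was -1.16 without replicate 4 and -0.35 without replicate 2. *nw* had -1.91, -2.60, -0.66 and -0.99, and *mey* -1.34, -1.91, -1.26 and -0.74. These 2 genes were male-biased on every *tud* array, with means of -1.54 ± 0.88 and -1.31 ± 0.48 (n = 4), which is 2.91-fold and 2.48-fold more transcript in males. *CG31637* had -0.61, -1.31, -0.68 and 0.04, with a mean of -0.64 ± 0.55 and 1 array on the other side of 0. Its Cy5 and Cy3 means were -0.96 and -0.32. Thus 2 of the 4 genes were below 0 on every *tud* array, against 18.8% of all elements, and over the 52 listed elements the median was -0.80 in *tud* progeny beside -0.23 in CS.

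Germline RNA differs between these comparisons and was measured beside the members. *kermit* is also among the 671 elements that the study lists as expressed in the male germline, and *mey* and *nw* are among the 350 it lists for the female germline. The median log2 ratio of the male germline list was -1.43 in CS and -1.51 in Berlin, near 0 in *tud* (-0.04), *tra* (0.03), *dsx*D (-0.03) and XX null (-0.02, and 0.02 without replicate 4) comparisons, and 0.84 in the comparison of CS males with XY nulls. Hence the elements of this list were mostly lower in XY nulls than in CS males, with 41 of 665 below 0.

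*kermit* lay near the middle of the male germline list in CS, 358th of 659 from the most negative, and near its lower end elsewhere, 7th of 347 in *tud*, 42nd of 328 in *tra*, 25th of 384 in *dsx*D, 9th of 325 in XX nulls (8th of 291 without replicate 4) and 18th of 665 in XY nulls. Its ratio was below that of most listed elements in every comparison except those of the wild type sexes. In *tud*, *dsx*D and both nulls the choice of *kermit* on these arrays fixes this in part. The median of the female germline list was between -0.19 and 0.29 in all 7 comparisons. From the most negative, *mey* was 58th and *nw* 60th of 339 in CS, 2nd and 7th of 307 in Berlin, 5th and 2nd of 320 in *tud* and 51st and 171st of 311 in *tra*. In *dsx*D they were 2nd and 21st of 325, in XX nulls 2nd and 23rd of 333 (3rd and 23rd of 324 without replicate 4) and in XY nulls 4th and 18th of 330. Both genes were near the lower end of the list in *tud*, *dsx*D and both nulls, which their choice on these arrays fixes in part. In *tra*, *nw* was above the median of the list. The part of germline RNA in the values of *kermit*, *mey* and *nw* was not tested.

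**Figure D2:**
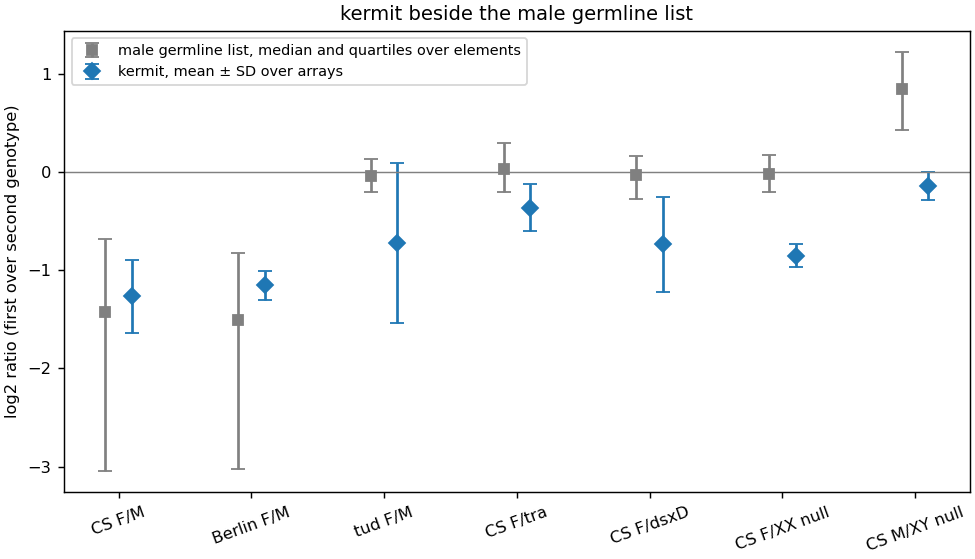
Mean log2 ratio ± SD over arrays of *kermit* (diamonds) beside the median and quartiles of the male germline list (squares) in the 7 comparisons (x axis; F, female; M, male). Both are below -1.1 in the wild type sexes, and in XY nulls the list median is 0.84 while *kermit* is at -0.14.

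The *tra* pseudomale comparison was tested over all elements. Because the study's list drew on these arrays too, passing or failing here is not independent evidence for any of the 4 genes. *kermit* had log2 ratios of -0.54, -0.53, -0.02 and -0.36, all below 0, with replicate 3 close to it. It was 1.29-fold higher in *tra* pseudomales than in CS females (-0.36, standard error 0.15, 95% confidence interval -0.71 to -0.02, *q* = 0.115 in limma). This call was lost when replicate 1 (*q* = 0.264), replicate 2 (*q* = 0.219) or replicate 4 (*q* = 0.261) was left out, with Benjamini-Hochberg adjustment (0.206), with an unmoderated test (*q* = 0.180), and with one-sided tests toward the wild type sign, the form that the study used (*q* = 0.182). It held without replicate 3 (limma *q* = 0.0985), and with centering, scaling, array weights and higher minimum numbers of arrays. A dye term also kept it (limma *q* = 0.0237), in a fit that called 3764 of 6235 elements.

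*CG31637* had -0.25, -0.59, -0.51 and -0.65, and was 1.41-fold higher in *tra* pseudomales (-0.50, standard error 0.14, 95% confidence interval -0.82 to -0.18, *q* = 0.0504). All 4 arrays were well below 0, and the call was lost without replicate 4 (*q* = 0.184). The study's list downstream of *tra*, on which *CG31637* stands, was made from these same arrays.

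*mey* had 0.28, 0.53, -1.12 and -0.54 in the *tra* comparison. The sign followed the dye, with a mean of 0.41 on the Cy5 arrays and -0.83 on the Cy3 arrays. Its mean of -0.21 was not called (95% confidence interval -0.84 to 0.42, *q* = 0.389), and a fit with a dye term gave the same mean with *q* = 0.112. *nw* had 0.12, 0.38 and -0.00 on replicates 2, 3 and 4 and none on replicate 1, which places CS females at or above *tra* pseudomales. Its mean of 0.16 was not called either (95% confidence interval -0.24 to 0.57, *q* = 0.346), and that interval leaves out a difference of the size *nw* had in *dsx*D pseudomales.

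Thus 2 of the 4 genes were called, both higher in *tra* pseudomales, where 24.7% of all 7587 elements tested were called in either direction and 11.5% as lower in CS females. The same 2 were below 0 on every array, beside 17.6% of all elements. Over the list of 52, 27 of the 49 elements tested were called as lower in CS females and 0 as higher. The list is not independent of these arrays.

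In *dsx*D pseudomales all 4 genes were below 0 on every array, against 20.4% of all elements, a count that the choice of the genes fixes in part. *mey* had -2.40, -1.77, -2.53 and -2.35, tightly grouped at a mean of -2.26 ± 0.33 (n = 4). That is 4.80-fold more transcript in *dsx*D pseudomales than in CS females, the fourth most negative ratio of the 52, between *Osi11* (-2.30) and *ImpE1* (-2.25). *CG31637* had -1.44, -1.06, -0.92 and -1.0, with a mean of -1.10 ± 0.23 (2.15-fold).

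*nw* had -1.21, -1.58, -1.73 and -0.18 in *dsx*D, a mean of -1.17 ± 0.70 (2.26-fold) in which replicate 4 lay close to 0. *kermit* had -1.02, -1.01 and -0.18 on replicates 2, 3 and 4, with a mean of -0.74 ± 0.48 (1.67-fold). On this array, replicate 4, both *kermit* and *nw* were near 0 while *mey* and *CG31637* were not. *kermit* ranked 43rd of 52 in *dsx*D, next to *C901* (-0.77) and *CG12948* (-0.73), where the median of the list was -1.18.

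The *tra* and *dsx*D ratios, which share CS female RNA, can be set side by side because both pseudomales are XX animals with the male form of DSX. For *mey* the *tra* arrays (-1.12 to 0.53) and the *dsx*D arrays (-2.53 to -1.77) did not overlap, with means of -0.21 and -2.26. *nw* (0.16 and -1.17) and *CG31637* (-0.50 and -1.10) were also apart, array by array, and *kermit* (-0.36 and -0.74) overlapped. All 4 were less negative in *tra* than in *dsx*D pseudomales, as was the median of the 52 listed elements (-0.38 and -1.18). The choice of the genes fixes this gap in part. *kermit*, *mey* and *nw*, like most of the 52, entered by the route for genes that did not pass the study's *tra* test. That route asked for a stricter threshold in *dsx*D. The difference between these comparisons was not tested.

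In XX *dsx* nulls, which make no DSX, all 4 genes were again below 0 on every array, against 21.9% of all elements. *kermit* had -0.82, -0.99, -0.71 and -0.88, and *CG31637* -0.75, -1.01, -0.76 and -0.94. Both were closely grouped, with means of -0.85 ± 0.12 (1.80-fold higher in XX nulls) and -0.87 ± 0.13 (1.82-fold). *nw* had -0.60, -1.07, -0.66 and -0.97, with a mean of -0.82 ± 0.23 (1.77-fold).

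*mey* had -1.09, -2.82, -1.40 and -2.29, with a mean of -1.90 ± 0.80 (3.73-fold) and the widest spread of the 4. Without replicate 4, whose *roX1* ratio goes against its label, the means were -0.84 ± 0.14 for *kermit*, -0.84 ± 0.15 for *CG31637*, -1.77 ± 0.92 for *mey* and -0.78 ± 0.26 for *nw* (n = 3). These differ from the means of 4 arrays by less than their SD. The array ranges of the *dsx*D and XX null comparisons overlapped for each of the 4 genes.

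XY *dsx* nulls separated *kermit* from the other 3 genes. Its log2 ratios were 0.03, -0.07, -0.25 and -0.26, with a mean of -0.14 ± 0.14 (n = 4), so that CS males and XY nulls were within the spread of the arrays. *CG31637* had -1.33, -1.21, -1.19 and -1.23, a mean of -1.24 ± 0.06 (2.36-fold higher in XY nulls) with the smallest spread of any of the 4 genes in any comparison. *mey* had -1.96, -1.59, -1.78 and -2.63, with a mean of -1.99 ± 0.45 (3.98-fold).

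*nw* had -1.73, -0.40, -1.45 and -2.01 in XY nulls, with a mean of -1.40 ± 0.71 (2.63-fold) and replicate 2 nearest to 0. Thus 3 of the 4 genes were below 0 on every XY null array, against a background of 36.4% of all elements. The description of lower levels in both wild type sexes than in the nulls holds array by array for *CG31637*, *mey* and *nw*, and for *kermit* in XX animals alone.

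Comparing both null effects gene by gene, *kermit* had an XX ratio 0.71 ± 0.18 below its XY ratio (difference of means with the SDs added in quadrature), and no XX array overlapped an XY array. *CG31637* was apart in the other direction, with an XX ratio 0.37 ± 0.14 above its XY ratio. For *mey* (0.09 ± 0.92) and *nw* (0.57 ± 0.74) the arrays overlapped. Without XX null replicate 4 the differences were -0.70 ± 0.20 for *kermit* and 0.40 ± 0.16 for *CG31637*, both still apart, and 0.22 ± 1.03 for *mey* and 0.62 ± 0.75 for *nw*, both still overlapping. Among the 46 listed elements with values in both, 37 had an XX ratio above their XY ratio and the median difference was 0.36 (38 and 0.41 without XX null replicate 4), so *kermit*, the fifth lowest of the 46 with and without that array, lay toward the opposite end from most of its list. These null arrays chose the genes, and the difference was not tested. The male germline list, to which *kermit* belongs, stood at -0.02 in the XX and at 0.84 in the XY comparison.

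**Figure D3:**
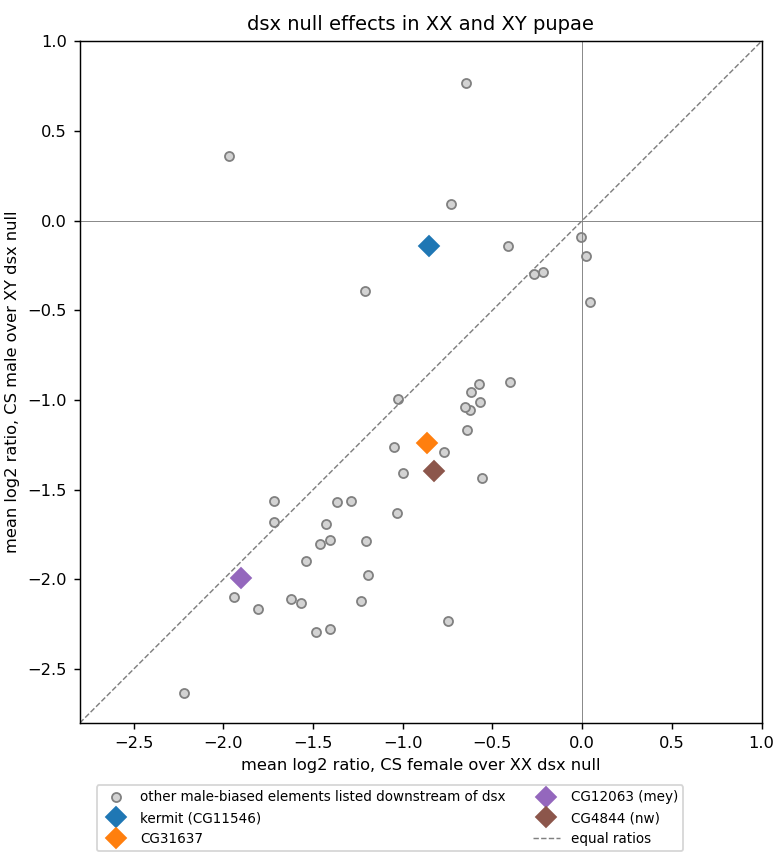
Mean log2 ratio of CS female over XX *dsx* null (x axis) against that of CS male over XY *dsx* null (y axis) for the 46 male-biased elements listed downstream of *dsx* with values in both, with the 4 genes as diamonds and equal ratios as the dashed line. *CG31637*, *mey* and *nw* lie with the 37 elements below the line, and *kermit* lies above it, at -0.85 and -0.14.

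Put on 1 scale, with CS females at 0, *kermit* rose from CS females through *tra* pseudomales (0.36), *dsx*D pseudomales (0.74) and XX nulls (0.85) to CS males (1.27) and XY nulls (1.41). Only CS females and *tra* pseudomales were neighbours whose mean ± SD did not overlap. Every XX genotype was thus below both XY genotypes in mean. *CG31637* had CS males (0.07) and *tra* pseudomales (0.50) next to CS females, then XX nulls (0.87), *dsx*D pseudomales (1.10) and XY nulls (1.31), with a gap beyond the SDs between *tra* pseudomales and XX nulls.

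*mey* had the same lower group, CS males (0.13) and *tra* pseudomales (0.21), and after a gap beyond the SDs XX nulls (1.90), XY nulls (2.12) and *dsx*D pseudomales (2.26), which did not separate from each other. Without XX null replicate 4 the gap of *mey* closed, with XX nulls at 1.77 ± 0.92 and *tra* pseudomales at 0.21 ± 0.76. The gap of *CG31637* held, and the order of the levels was the same for each of the 4 genes. For *nw*, *tra* pseudomales (-0.16), CS females and CS males (0.13) preceded XX nulls (0.82), *dsx*D pseudomales (1.17) and XY nulls (1.53), and no neighbours were apart. The XY null levels run over 2 steps, by way of CS males, and carry the spread of both. In *CG31637*, *mey* and *nw* the mean of CS males was nearer to CS females than to *dsx*D pseudomales or either null.

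**Figure D4:**
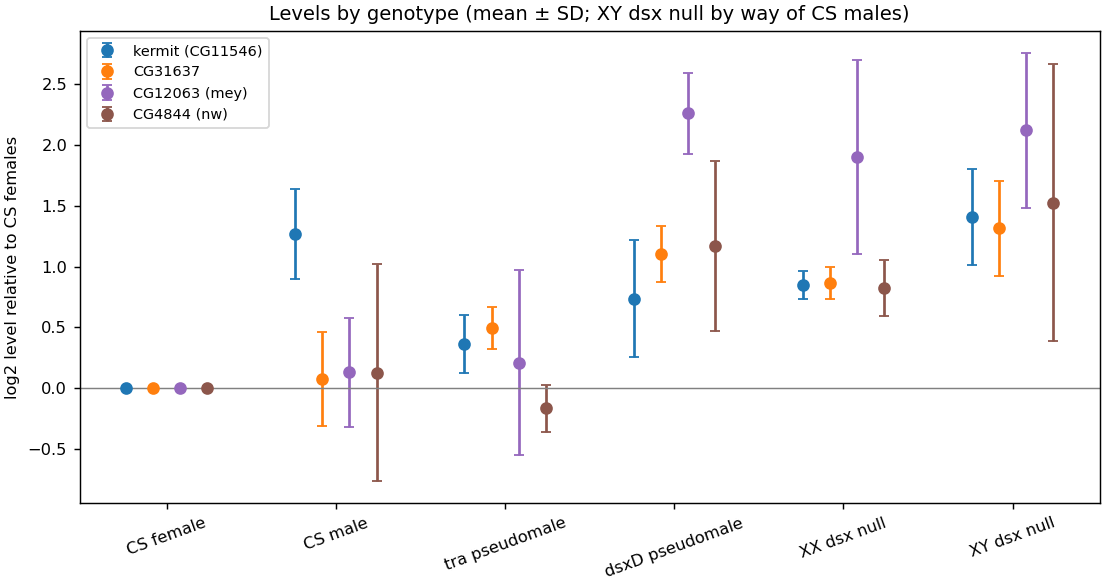
Log2 level relative to CS females (y axis, mean ± SD over arrays) of the 4 genes in 6 genotypes (x axis), with XY *dsx* nulls placed by way of CS males. *kermit* is high in CS males (1.27), where the other 3 genes are between 0.07 and 0.13, and *mey* reaches 1.90 or more in both nulls and *dsx*D pseudomales.

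Over the arrays, the 4 genes fell into 3 that varied together and *kermit*. The Pearson correlation of log2 ratios was 0.81 between *CG31637* and *mey* (28 arrays), 0.68 between *mey* and *nw* (27) and 0.59 between *CG31637* and *nw* (27), whereas *kermit* had -0.24, -0.13 and 0.16 with *CG31637*, *mey* and *nw* (24 or 25 arrays). These are descriptions, since arrays share control RNA and comparison. Differences between comparisons made up 59.4% of the sum of squares for *kermit*, 71.0% for *CG31637*, 70.6% for *mey* and 42.4% for *nw*. For *nw* alone the larger share lay between arrays of the same comparison. These shares take no account of the numbers of comparisons and arrays, so they do not show which of them varied more.

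Among the elements with a name, those most like each gene over at least 20 shared arrays also differed between genes. *kermit* was most like *mib2* (0.83, 22 arrays), an E3 ubiquitin ligase, *gish* (0.83, 21), a casein kinase, and *Cul3* (0.83, 24), a cullin of ubiquitin ligases, and all 3 are on the male germline list. That list has 671 elements, where 2357 elements had a name. Its share of the 1518 elements compared with *kermit* was not counted. *CG31637* was most like *CG30440* (0.89, 25), *tpr* (0.89, 28) and *vri* (0.89, 26), a bZIP transcription factor, of which *tpr* and *vri* are among the 52. *mey* was most like *Spn100A* (0.97, 28), a serpin, *neo* (0.97, 27), another ZP domain protein, and *CG8420* (0.97, 28). *Spn100A* and *CG8420* are among the 52, and *CG8420* is also on the male germline list. *nw* was most like *pio* (0.88, 25), also a ZP domain protein, *bnb* (0.86, 27) and *Spec2* (0.85, 23), of which *pio* is among the 52. The share of the 52 among the elements compared was not counted.

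ZP domain genes were then looked at as a family, a list added after *neo* and *pio* had been seen and so given without a test of the list. Of 14 genes listed, 10 had a named element, 9 beside *mey*. Of these 9, 5 (*m*, *dyl*, *tyn*, *nyo* and *pio*) are also among the 52, and *dy*, *neo*, *pot* and *qsm* are not. The study built the list of 52 from the wild type, *tud*, *tra* and *dsx*D arrays. Counts of the 9 in those comparisons are therefore not independent of that choice. In every comparison a gene could be counted only if a list of the study named its element. The shares over all elements have no such limit, so the counts of this family cannot be weighed against them. *neo* and *pio*, which prompted the list, are counted too. In *dsx*D pseudomales 7 of the 9 were below 0 on every array (20.4% of all elements), with a median of the means of -1.63 beside -0.02 over all elements. Outside the 52, *dy* and *neo* were among these 7, and *pot* and *qsm* were not. *neo* had the most negative mean (-2.71 ± 0.49), beyond that of *mey*, followed by *tyn* (-2.00 ± 0.41), *m* (-1.91 ± 0.34), *dyl* (-1.64 ± 0.16), *nyo* (-1.63 ± 1.06), *dy* (-1.21 ± 0.25) and *pio* (-0.80 ± 0.16, n = 3).

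The remaining 2, *pot*, which links the wing epithelium to the cuticle, and *qsm*, lay near 0 in *dsx*D (0.02 ± 0.20 and 0.20 ± 0.22, n = 3). In XX nulls 6 of 8 measured genes of the family were below 0 on every array (median -1.06), against 21.9% of all elements, and without replicate 4 the count was 6 of 8 (median -0.92), against 25.3%. In XY nulls 8 of 8 were (median -1.56), against 36.4%. In *tud* progeny 7 of 9 were, with a median of -0.78, against 18.8%. The wild type strains had fewer, 1 of 9 in CS (median -0.02, against 22.9%) and 3 of 9 in Berlin (median -0.30, against 22.1%), and whether these counts differ between comparisons was not tested.

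In the *tra* comparison, 4 of the 9 ZP domain genes were called as lower in CS females, against 11.5% of all elements, namely *m* (-0.67 ± 0.29, limma *q* = 0.0318), *dyl* (-0.63 ± 0.32, *q* = 0.0409), *dy* (-0.57 ± 0.58, n = 3, *q* = 0.135) and *tyn* (-0.42 ± 0.43, *q* = 0.137). As higher in CS females 2 were called, *qsm* (0.69 ± 0.47, *q* = 0.0532) and *pot* (0.38 ± 0.10, n = 3, *q* = 0.134), where 13.3% of all elements were called in that direction. *neo*, like *mey*, was not called (0.27 ± 0.86, *q* = 0.362).

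**Figure D5:**
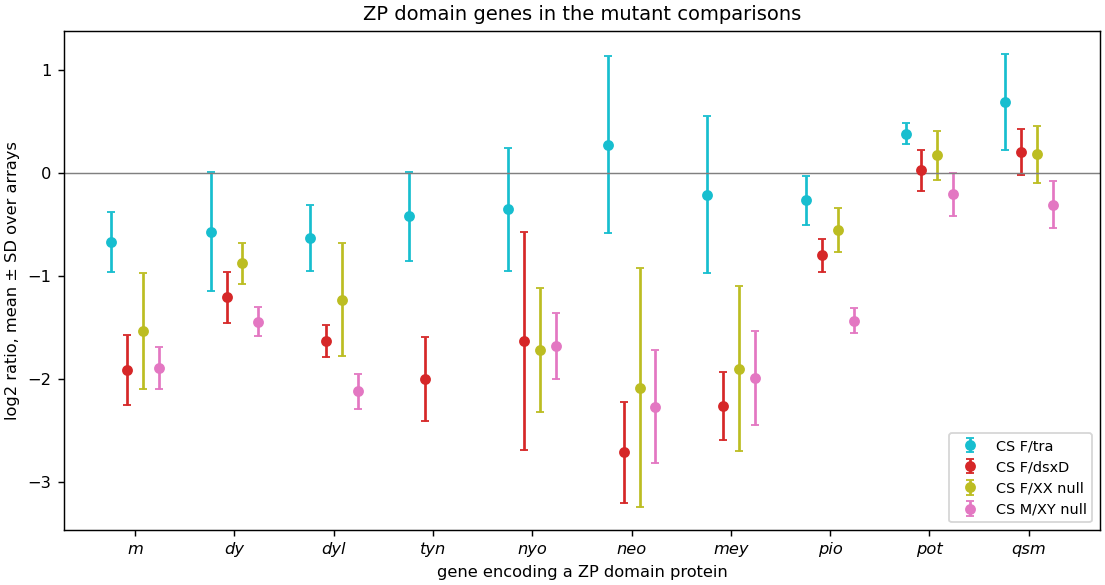
Mean log2 ratio ± SD over arrays (y axis) of 10 ZP domain genes (x axis) in the 4 mutant comparisons. *neo* and *mey* have the most negative *dsx*D ratios, at -2.71 and -2.26, with *tra* ratios near 0, and *pot* and *qsm* stay within 0.4 of 0 in *dsx*D and both null comparisons.

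Of the genes listed around *kermit*, 2 of 6 had a named element. *jar*, which encodes myosin VI, the partner of KERMIT, had mean log2 ratios of -0.41 ± 0.21 in CS and -0.66 ± 0.13 in Berlin, 0.29 ± 0.24 in *tud*, 0.16 ± 0.31 in *tra* (limma *q* = 0.340), -0.21 ± 1.09 in *dsx*D, 0.20 ± 0.30 in XX nulls (0.17 ± 0.36 without replicate 4) and 0.88 ± 0.21 in XY nulls (n = 4, or 3 without replicate 4). Its mean was on the male side in both wild type strains and, beyond its SD, on the female side in *tud*. In the XY null comparison *jar* was higher in CS males than in XY nulls, also beyond its SD. The mean of *jar* lay within its SD of 0 in *tra*, *dsx*D and XX nulls. *pk*, a planar polarity gene, had 0.10 ± 0.17 in CS, 0.25 ± 0.27 in Berlin, -0.30 ± 0.27 in *tud*, -0.10 ± 0.28 in *tra* (limma *q* = 0.426), -0.13 ± 0.23 in *dsx*D, -0.28 ± 0.58 in XX nulls (-0.09 ± 0.53 without replicate 4) and -0.76 ± 0.28 in XY nulls. Of 6 other sulfotransferases of sugar chains listed around *CG31637*, 0 had a named element.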

How the data were processed

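The authors hybridized 2 genotypes to each spotted oligonucleotide array, filtered elements on intensity and applied a global loess correction within arrays in LIMMA. Their deposited table, from the authors, holds log2 ratios of both genotypes for every element that passed, and all arrays of a comparison already run in the same direction whatever the dyes. The table holds no counts, and the number of arrays limits the precision. The direction of the ratios was taken from *roX1* and the signs of the study's listed sets. Of 15776 elements, 32 controls were left out. The study's lists name 2357 elements, of which 2325 were found in the RefSeq gene table (Release 6), used here for symbols and chromosome arms alone.

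In R 4.3.3, limma 3.58.1 tested the *tra* ratios against 0 and CS against Berlin, two-sided, for elements measured on 2 or more arrays (of each strain), with Storey's *q* values (smoother, lambda from 0.05 to 0.95) over all elements and a threshold of 0.15. Other comparisons chose the genes and were not tested. The fits were tested on simulated data. Genes named in the text are the 4 members, the check genes, list neighbours in rank, the 3 most correlated named elements per member, and listed pathway genes with a named element. The ZP domain list was added after the data were seen. Members and lists were chosen with earlier results of these data known. Nothing in the labels separates biological from technical replicates, so that *q* values measure the spread between arrays. For replicates 2 and 4 of *tud* progeny, the sex of channel 2 differs between label fields. The *roX1* log2 ratios of *tud* replicates 1 to 4 were -7.49, -9.01, -7.00 and -7.80, all far on the male side. Those of *roX2*, another RNA of male dosage compensation, were -0.07, -3.75, -5.54 and -5.53, with replicate 1 near 0. In Berlin the *roX2* ratios were -0.94, -0.63, -3.42 and -3.59 on replicates 1 to 4. Alternatives were Benjamini-Hochberg adjustment, one-sided tests, a dye term, centering, scaling, other minimum numbers of arrays, array weights, an unmoderated t-test, a replicate block and leaving out each array. Counts, ranks and differences of the XX nulls without replicate 4 were added after the data were seen. Plots came from matplotlib 3.10.9 in Python 3.11.15.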

Additional observations from a re-analysis of the deposited data

How the results depend on the processing

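Of the *tra* calls, that of *kermit* (-0.36 throughout) was lost with Benjamini-Hochberg adjustment (0.206), one-sided tests (*q* = 0.182) and an unmoderated test (*q* = 0.180). With a dye term it held (limma *q* = 0.0237), as did that of *CG31637* (*q* = 0.0102). Leaving out 1 array moved its mean between -0.48 and -0.31 and the mean of *CG31637* between -0.58 and -0.45, with the losses given above. *mey* (-0.21) was called with a dye term in limma (*q* = 0.112). The number of elements called, 1876 of 7587, became 1080 with Benjamini-Hochberg adjustment and 868 with the unmoderated test. Settings that also changed the elements tested gave 659 of 7123 with one-sided tests, 3764 of 6235 with a dye term and 739 to 1419 with 1 array left out (739 of 6644 without replicate 4, 1137 of 7342 without replicate 1). For CS minus Berlin, 276 of 8153 elements became 151 with Benjamini-Hochberg adjustment, 560 of 8143 with a dye term, 11 with scaling, 139 of 6726 with at least 3 arrays of each strain, 36 with the unmoderated test and 12 to 466 with 1 array left out (12, 24 and 104 without CS replicates 4, 1 and 2, and 62 and 466 without Berlin replicates 2 and 3). Of the 276, 189 were below 0 and 87 above, beside 115 and 124 with centering and 10 and 1 with scaling. None of the 4 genes was called for that difference under any of 15 alternatives, where their limma *q* values ran from 0.276 to 0.879. The cause of these changes was not tested. Replicate numbers did not pair CS with Berlin arrays (same-number correlations of 0.24, -0.02, 0.20 and 0.06), and a fit with the replicate number as a block called 190 of 7577 elements and gave 0.02 for *kermit*, 0.21 for *CG31637*, 0.58 for *mey* and 0.40 for *nw*. With this block *mey* had an unadjusted limma *p* of 0.039 (*q* = 0.280), beside 0.164 in the main fit. Untested CS means near 0 changed sign without CS replicate 1 (*mey* 0.05, *CG31637* 0.11, *nw* 0.09) or replicate 2 (*nw* 0.15), and the *tra* mean of *mey* became 0.09 without replicate 3. The XY null mean of *CG31637* was -1.16 with centering. A fit with all 4 arrays gave no *tra* value for *nw*.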
